A study of Rattus norvegicus with 4 samples.

Results

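Apolipoproteins are the protein components of the particles that carry cholesterol and triglyceride in plasma, and 5 of their genes were measured here in rat liver after the bile duct was closed. The members were every gene whose symbol in the annotation of the array platform begins with Apoa, Apob, Apoc or Apom, or is Apoe or Apoh, with the Apobec editing enzymes left out. This gave 7 probes of the 1936 on the array, and 5 genes of 958: Apoa1, Apob and Apoe with 1 probe each, and Apoa4 and Apoc1 with 2 probes each. The other 7 protein-coding genes that fit the rule in the RefSeq gene table (Apoa2, Apoa5, Apoc2, Apoc3, Apoc4, Apoh and Apom) are not analysed here.

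The study compared male Sprague-Dawley rats of 250 to 300 g, 12 h after the common bile duct was tied between the liver hilus and the intestine, with rats given a sham operation in which the duct was exposed but not tied. Both groups were operated under ether and had free food and water afterwards. Age is not given in the labels. RNA from the right lateral lobe of 3 rats per group was mixed, so variation between animals cannot be seen, and poly(A) RNA of the mixture was labelled for a two-colour glass array of rat cDNAs. Each of the 4 arrays carried both mixtures. Ligation was in Cy5 and sham in Cy3 on arrays 1 and 3, and the dyes were swapped on arrays 2 and 4. The labels do not say that the arrays held separate RNA, so every p-value below measures only the spread between arrays, which may be technical. For the p-values and SEs of the model described below, that spread is largely pooled over genes. Where RNA of whole liver is compared, fewer cells of a type and less RNA per cell cannot be told apart.

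The exchangeable apolipoproteins (Apoa1, Apoa4, Apoc1 and Apoe) are small proteins built from amphipathic helices that move between lipoprotein particles, whereas Apob is a very large protein that stays with the particle it was secreted on. The liver is a main source of Apob, Apoc1 and Apoe and, with the intestine, of Apoa1, and in rats both the intestine and the liver make Apoa4. When bile flow stops, cholesterol and phospholipid that normally leave in bile return to plasma, and abnormal lipoproteins are a known feature of cholestasis. In the RefSeq gene order, Apoa1 and Apoa4 lie in a cluster with Apoc3 between them and Apoa5 beyond, and Apoc1 and Apoe are direct neighbours.

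Apoc1 and Apoe are shown by sequence because these neighbouring genes differed from each other on every array, as described below. The stretches are the 250 bases before the outermost transcript start that the RefSeq promoter table (build GRCr8) gives for each gene, written 5′ to 3′ on the gene's own strand, which is the minus strand for both. Capitals mark the GC box core GGGCGG or its reverse CCGCCC.
Apoc1, chr1:88478306-88478555: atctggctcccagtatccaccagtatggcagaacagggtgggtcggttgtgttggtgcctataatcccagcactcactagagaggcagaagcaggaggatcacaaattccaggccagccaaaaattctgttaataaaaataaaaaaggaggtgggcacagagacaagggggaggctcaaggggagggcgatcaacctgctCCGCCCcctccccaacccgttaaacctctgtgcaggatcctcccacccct
Apoe, chr1:88485817-88486066: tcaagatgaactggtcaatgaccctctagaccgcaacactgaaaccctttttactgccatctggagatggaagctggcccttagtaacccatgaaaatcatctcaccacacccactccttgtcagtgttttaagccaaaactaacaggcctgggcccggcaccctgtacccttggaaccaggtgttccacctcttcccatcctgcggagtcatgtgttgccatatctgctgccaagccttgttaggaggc
The Apoc1 stretch held 1 match of the GC box core, beginning 50 bases before the start, and the Apoe stretch held none. Neither held TATAAA or the nuclear receptor half-site AGGTCA on either strand. Of 33469 windows of 250 bases in the table, 30.5% held the GC box core, 12.9% TATAAA and 14.1% AGGTCA, in either orientation. The table gave 2 starts for Apoc1, 3 for Apoe, and 1 for Apoa4, whose window held 1 GC box core and neither of the other motifs.

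Each value is a log ratio of the 2 channels, as deposited by the authors, read here as log2 of ligation over sham. Neither the base nor the direction is stated in the sources used here. That direction was assumed because channel 2 holds ligation on every array, and the channel number alone does not fix it. Over all probes, arrays of the same dye orientation correlated at r = 0.93 and 0.94, and arrays of opposite orientation at -0.45, -0.36, -0.35 and -0.28, across probes that are not independent replicates. These correlations do not settle the direction and are no support for the reading used. If the ratio were Cy5 over Cy3 instead, the sign of arrays 2 and 4 would turn. Each apolipoprotein gene's value under that reading is given beside the main one. For called members of the lists named below, it is given in the last section where the sign would turn. Every signed value below depends on this reading. The column medians also differed (-1.26, 0.43, -0.96 and 0.26 for arrays 1 to 4), so each array was centred on its own median, which added 0.38 on average to every gene. No intensities were used, so the signal over background of these probes is unknown and the number of arrays limits the precision.

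In the deposited values, before centring, Apoc1, Apoe and 1 Apoa4 probe lay below 0 on each of the 4 arrays, Apoc1 the furthest, and Apoa1 lay near 0. As gene means, Apoc1 and Apoe were below 0 on all 4, and 27.3% of all genes were. After centring, Apoa1 was 1.30-fold higher and Apoc1 1.41-fold lower than sham by the model across all genes, and Apoa4, Apob and Apoe did not pass its test. The model was limma's, with a ligation and a dye term per gene, and a gene was called at a Benjamini-Hochberg adjusted p below 0.05. It draws each gene's variance toward a value shared by all features, with 10.4 prior against 2 residual degrees of freedom in the centred fit. Each SE below therefore reflects mostly the shared spread and not that gene's own. Of the 958 genes 27.1% were called, 11.7% higher and 15.4% lower. The median of the 5 apolipoprotein genes was 0.011 against -0.013 for all 958 genes. Without centring these medians were -0.37 and -0.39. The 2 genes that passed went opposite ways. A count of 2 in 5 beside a background of 27.1% says nothing particular about apolipoproteins. With no centring 4 of the 5 were called lower, beside 83.7% of all genes called (1.15% higher and 82.6% lower), and 5 of the 7 probes were called lower, beside 82.6% of all probes (1.88% higher and 80.7% lower). Under the Cy5 over Cy3 reading all 5 genes were called higher, beside 78.0% of all genes called (45.2% higher and 32.8% lower). Of the probes 6 were then called higher and 1 lower, beside 81.7% of all probes (47.9% higher and 33.7% lower).

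**Figure D1:**
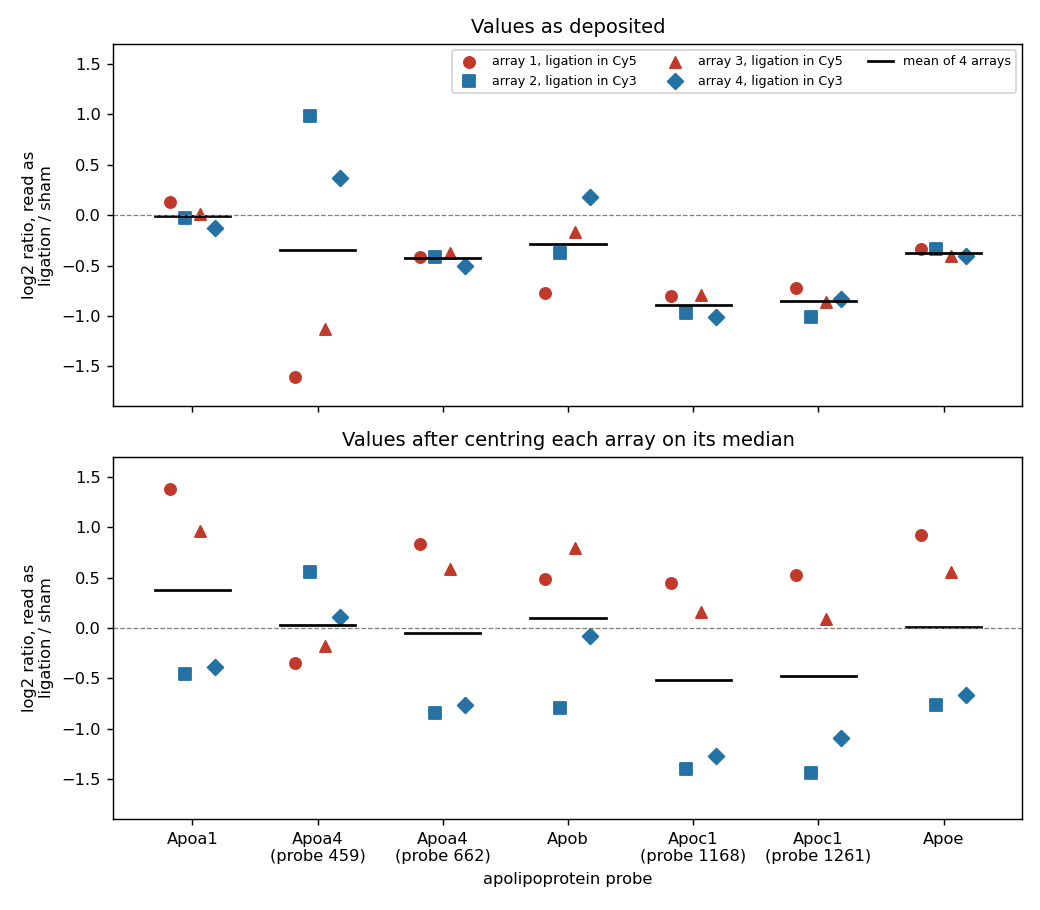
Log2 ratio, read as ligation over sham (vertical axis), of the 7 apolipoprotein probes (horizontal axis) on the 4 arrays, as deposited (top) and after each array was centred on its median (bottom). Red points are arrays with ligation in Cy5, blue points arrays with ligation in Cy3, and the bar is the mean of the 4. As deposited, both orientations coincide closely for Apoa1, Apoa4 probe 662, both Apoc1 probes and Apoe, and after centring every probe is split by dye.

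Apoc1 encodes a small protein of triglyceride-rich and high-density particles that hampers their uptake by receptors. The deposited log2 values of its probe 1168 were -0.81, -0.97, -0.79 and -1.01 on arrays 1 to 4. Those of its probe 1261 were -0.73, -1.01, -0.86 and -0.83. All 8 values lay below 0, the arrays of both dye orientations overlapped for probe 1261, and the probes differed by at most 0.18 on any array. After centring, the gene's values on the log2 scale were 0.49, -1.42, 0.13 and -1.18, so the arrays split by dye and the sign was no longer shared. The fit, which balances the dyes, gave -0.50 ± 0.08 (SE, 4 arrays; limma adjusted p = 0.000568), with -0.52 and -0.48 for the separate probes. In the separate limma fit of 1648 probes both were called lower (adjusted p = 0.0003 and 0.00146), and Apoa1 was the only other of the 7 that was called. There 27.9% of all probes were called, 11.8% higher and 16.1% lower. Apoc1 ranked 54 from the lowest of 958 genes in this reading, and would rank 913 under the other. Without centring the gene was at -0.88 ± 0.09, a 1.84-fold lower level (adjusted p = 1.12e-05). As Cy5 over Cy3, centred, it would be 0.80 and higher (adjusted p = 5.76e-06).

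Apoa1 encodes the main protein of high-density lipoprotein and activates the plasma enzyme that esterifies cholesterol. Its single probe had deposited log2 values of 0.13, -0.027, 0.010 and -0.13 on arrays 1 to 4. These lie on both sides of 0, with an SD of 0.11. Centred, the values were 1.39, -0.45, 0.97 and -0.39, higher with ligation in Cy5 and lower with ligation in Cy3. The fit gave 0.38 ± 0.08 (SE, 4 arrays; limma adjusted p = 0.00375), and without centring -0.0039 ± 0.086 (adjusted p = 0.97). The call for Apoa1 therefore rests on where the zero is placed. It was placed near the middle of all probes in the main fit, and 94.9% of genes had a lower fitted value (94.8% under the Cy5 over Cy3 reading). With the ratio turned to Cy5 over Cy3 it would be 0.80.

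Apoe encodes the ligand by which remnant particles are taken up by receptors of the LDL receptor family, and it is secreted by hepatocytes and macrophages. Its probe had deposited log2 values of -0.34, -0.34, -0.40 and -0.40 on arrays 1 to 4. The means of the 2 dye orientations differed by -0.00051, less than for any other of the 1648 probes that were not control spots. Centred, the values became 0.92, -0.76, 0.55 and -0.66 and the groups of arrays no longer overlapped. The fit gave 0.011 ± 0.08 (limma adjusted p = 0.957), and without centring -0.37 ± 0.09 (adjusted p = 0.00254). Apoe would be at 0.72 as Cy5 over Cy3.

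Apoa4 encodes a lipoprotein component secreted with chylomicrons in the intestine. Its probe 662 had deposited log2 values of -0.42, -0.42, -0.37 and -0.50 on arrays 1 to 4, all below 0. Its probe 459 had -1.60, 0.98, -1.13 and 0.37, far below 0 with ligation in Cy5 and above 0 with ligation in Cy3. The probes of this gene thus differed by 0.76 to 1.40 across the arrays, with the sign set by the dye. Both averaged to similar values over the 4 arrays, so that the fit gave 0.034 and -0.045 for probes 459 and 662 and -0.0054 ± 0.07 for the gene (limma adjusted p = 0.975). Without centring the gene was at -0.39 ± 0.10 (adjusted p = 0.00386). As Cy5 over Cy3 it would be 0.23, with its probes called in opposite directions, -0.30 and 0.76.

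Apob encodes the structural protein of very low density lipoprotein and the ligand of the LDL receptor. Its probe had deposited log2 values of -0.77, -0.37, -0.17 and 0.18 on arrays 1 to 4. Their SD was 0.40, and the orientations overlapped. The fit gave 0.098 ± 0.11 (limma adjusted p = 0.583), the largest SE of the 5 genes, and -0.28 ± 0.12 without centring (adjusted p = 0.0492). As Cy5 over Cy3 it would be 0.54. Apob was thus called lower without centring, called higher under that reading (adjusted p = 0.000451), and not called with the array median or the added zero described below. The uncentred call held only in the fit of genes: in the fit of separate probes its probe was not called (limma adjusted p = 0.0663). In the centred fit, leaving out array 2 moved its value to 0.28 and leaving out array 4 to -0.081.

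The difference of 2 genes on the same array needs no centring, so it was computed for all 10 pairs of the 5 genes. Apoa1 exceeded Apoc1 by 0.89, 0.96, 0.84 and 0.79 on arrays 1 to 4, a mean of 0.87 ± 0.07 (SD, n = 4 arrays) in log2 ratio. The ligation to sham ratio of Apoa1 was thus 1.83 times that of Apoc1, with means of 0.87 and 0.88 in the orientations with ligation in Cy5 and in Cy3. Apoa1 exceeded Apoe by 0.47, 0.31, 0.41 and 0.28, a mean of 0.37 ± 0.09. Apoc1 minus Apoe was -0.43, -0.65, -0.43 and -0.52, with a mean of -0.51 ± 0.11. The order Apoa1, Apoe, Apoc1 therefore held on each of the 4 arrays, and these 3 pairs were the only ones of 10 with a single sign on all arrays. The exact two-sided sign-flip permutation test gave p = 0.13 for each of the 3 (0.417 adjusted over the 10 pairs), which is the smallest p that 4 arrays allow, so the test cannot pass at this size. With the ratio as Cy5 over Cy3, the sign of Apoa1 minus Apoc1 would alternate between arrays and its mean would be -0.0062.

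**Figure D2:**
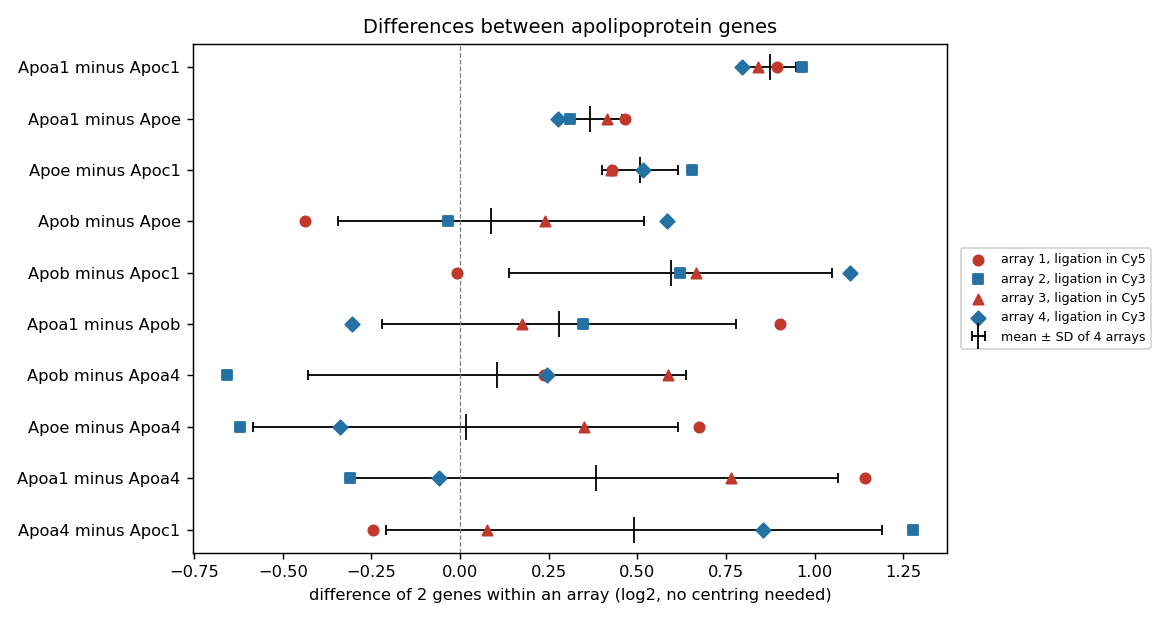
Difference in log2 ratio of 2 apolipoprotein genes on the same array (horizontal axis) for the 10 pairs (vertical axis), each turned so that its mean is positive, with 1 point per array and the mean ± SD of 4 arrays. The 3 pairs among Apoa1, Apoe and Apoc1 lie on one side of 0 with SDs of 0.07 to 0.11, and the 7 pairs with Apob or Apoa4 have SDs of 0.43 to 0.70.

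The other 7 pairs included Apob or the averaged Apoa4. Apob minus Apoc1 averaged 0.59 ± 0.46 and was -0.0082 on array 1, and Apoa1 minus Apob averaged 0.28 ± 0.50 with array 4 on the other side of 0. The latter moved to 0.072 without array 1 and to 0.47 without array 4. Such values with an array left out are plain means of the remaining arrays, without a dye term. The dye orientations are then unbalanced, so a shift mixes the omitted array with the dye. Apoa1 minus Apoa4 averaged 0.38 ± 0.68, and was 0.13 without array 1 and 0.61 without array 2. Apoa4 minus Apoc1 averaged 0.49 ± 0.70, and was -0.085 with ligation in Cy5 and 1.06 with ligation in Cy3, following probe 459. Its mean moved to 0.23 without array 2 and to 0.74 without array 1. The smallest mean was Apoa4 minus Apoe at -0.016 ± 0.60. In each of these 7 pairs at least 1 array lay on the other side of 0.

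The agreement between dye orientations was itself uneven over the array. Of the 7 apolipoprotein probes, 5 had orientation means within 0.2 of each other in the deposited log2 values, and 18.6% of the 1648 probes did. Some, but not all, of the other secreted plasma proteins listed below had gaps that small as well. Small gaps are thus not particular to apolipoproteins. The median absolute gap of all these probes was 1.15, with quartiles of 0.29 and 2.14. Apob had a gap of -0.37 (Cy5 minus Cy3 orientation) and Apoa4 probe 459 one of -2.04. After centring, the dye term passed for all 5 genes (limma adjusted p from 5.76e-06 to 0.0121) and for 78.0% of all genes. Before centring it passed only for Apoa4 (adjusted p = 0.000612), at a dye term of -0.50, against -0.00026 for Apoe, 0.073 for Apoa1, 0.079 for Apoc1 and -0.19 for Apob. The share of all genes that passed before centring is not given here, so that count has nothing to be set against.

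**Figure D3:**
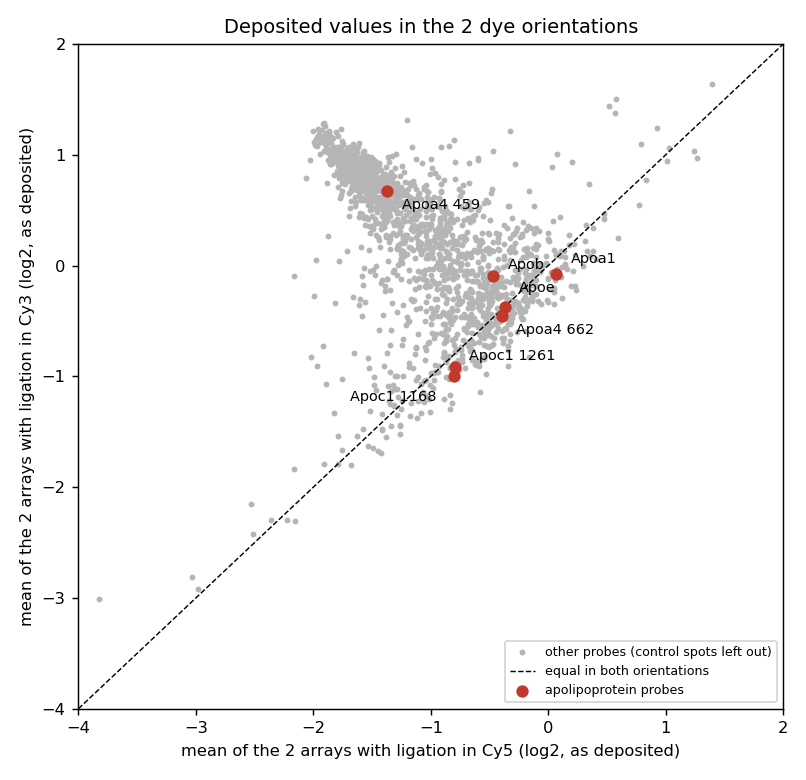
Mean deposited log2 value of each probe on the 2 arrays with ligation in Cy5 (horizontal axis) against that on the 2 arrays with ligation in Cy3 (vertical axis), for 1648 probes. Apolipoprotein probes are red, and the dashed line marks equal values. Apoa1, Apoe, Apoa4 probe 662 and both Apoc1 probes lie close to the line, whereas Apoa4 probe 459 lies in the dense cloud away from it.

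A zero point taken from the 412 probes whose orientations agreed best was added after the data were seen. The medians of these probes were -0.47, -0.41, -0.47 and -0.46 on arrays 1 to 4. Relative to them, Apoa1 was at 0.60, 0.39, 0.48 and 0.34 on the log2 scale, above 0 on each array, with a fitted value of 0.45 ± 0.07 (limma adjusted p = 0.0041). Apoc1 was at -0.30, -0.58, -0.36 and -0.46, below 0 on each array, with -0.42 ± 0.07 (adjusted p = 0.00544). Apoe was at 0.13, 0.076, 0.063 and 0.058, with 0.083 ± 0.07 (adjusted p = 0.487), above 0 on each of the 4 arrays but not called. Apob was at 0.17 ± 0.13 and Apoa4 at 0.067 ± 0.09, neither past the test. With this zero 22.8% of all genes were called, 13.4% higher and 9.39% lower. The probes that set this zero were picked for agreement between orientations, which Apoa1, Apoc1 and Apoe shared.

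**Figure D4:**
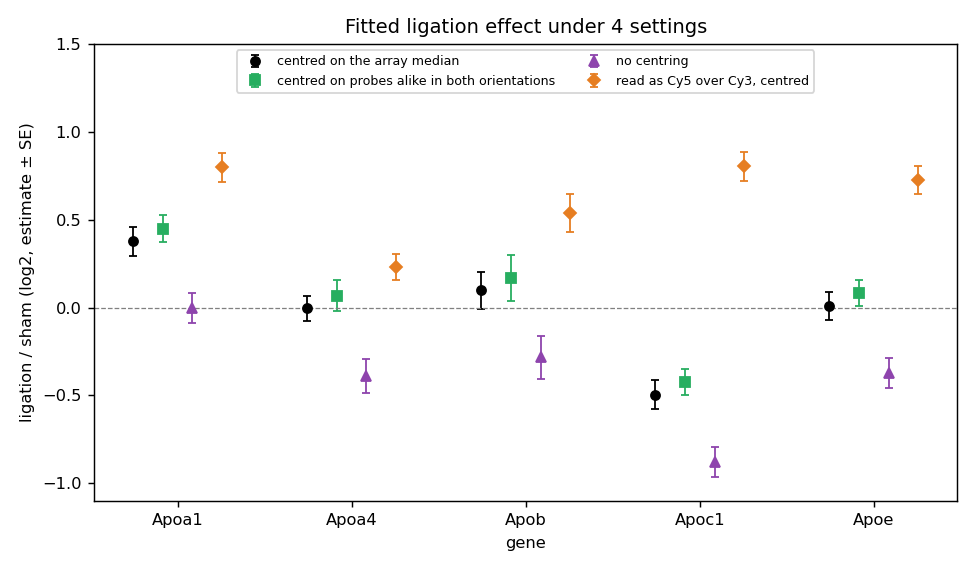
Fitted log2 ratio of ligation over sham (vertical axis, estimate ± SE from 4 arrays) for the 5 genes (horizontal axis) with 3 choices of zero and, in orange, under the other reading of the ratio. Apoa1 lies 0.87 above Apoc1 wherever the zero is placed, and under the other reading both are at 0.80.

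Genes that act on the same particles were described from lists. Of 5 measured genes of particle assembly and lipid loading, 1 was higher, 1 lower and 3 did not pass (median 0.0042), beside 11.7% of all genes higher and 15.4% lower. Without centring 0 were higher and 4 lower (median -0.38), beside 1.15% and 82.6% of all genes. The list includes Acat2, which under this symbol is a cytosolic thiolase and not an enzyme of lipid loading. Acat2 is 1 of the 3 that did not pass and 1 of the 4 lower without centring. Both medians are its own values, so they do not describe particle assembly. Sar1b, the GTPase of the vesicles that carry large lipoproteins from the reticulum, was lower at -0.47 ± 0.08 (limma adjusted p = 0.000434). The disulfide isomerase Pdia3 rose by 0.32 ± 0.08 in the centred fit. Uncentred it was at -0.059, and with array 4 left out it was not called (0.28, limma adjusted p = 0.0589).

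Of 3 measured lipases and modifiers, 2 were lower and 1 did not pass (median -0.23), beside 15.4% of all genes lower. Without centring all 3 were lower, beside 82.6% of genes, and with the zero from probes of agreeing orientations 1 was lower, beside 9.39%. Lipc, the hepatic lipase that hydrolyses lipids of high-density and remnant particles, was lower at -0.74 ± 0.09 (limma adjusted p = 6.56e-05) and also without centring (-1.12). Pon1, an esterase bound to high-density lipoprotein, was at -0.23 ± 0.08 (adjusted p = 0.0437), a call lost without array 2 (-0.26), array 3 (-0.16) or array 4 (-0.20) and with that added zero (-0.16, limma adjusted p = 0.218). Of 2 measured receptors, Scarb1, the receptor that takes cholesterol from high-density lipoprotein, was higher at 0.42 ± 0.07 (adjusted p = 0.000823); its uncentred value was 0.036. Cd36, a scavenger receptor that takes up fatty acids, was lower at -0.39 ± 0.10 (adjusted p = 0.0119), a call lost without array 1 (-0.41), array 3 (-0.38) or array 4 (-0.21). Nor was Cd36 called with the added zero (-0.32, limma adjusted p = 0.148). The calls of these 2 receptors in the centred fit stand beside 11.7% of all genes higher and 15.4% lower. The deposited gaps between orientations were -1.28 for Cd36, -1.20 for Pon1, -0.60 for Scarb1 and -0.24 for Lipc.

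Among 16 measured transcription factors known to act on apolipoprotein genes, 4 were higher, 2 lower and 10 did not pass (median 0.040), beside 11.7% of all genes higher and 15.4% lower. Without centring 2 were higher and 10 lower (median -0.34), beside 1.15% and 82.6% of all genes, so the balance of calls turned with the zero. The liver X receptor beta, Nr1h2, was at 0.65 ± 0.07, and its partner, the retinoid X receptor Rxra, was lower at -0.50 ± 0.07. The bile acid receptor Nr1h4, known to repress Apoa1 and to raise some Apoc genes, was lower at -0.64 ± 0.09, while the corepressor Nr0b2 was higher at 0.65 ± 0.09. Egr1 was higher at 0.44 ± 0.09, and Cebpd at 0.30 ± 0.07, with Cebpd not called without array 4 (0.28, adjusted p = 0.0587). Without centring Egr1 was at 0.056 and Cebpd at -0.087, neither called, whereas Nr1h2 and Nr0b2 stayed called at 0.27 each. The deposited gaps between orientations were -2.52 for Egr1, -1.13 for Nr1h4, -0.68 for Cebpd, -0.37 for Rxra, 0.090 for Nr1h2 and 0.016 for Nr0b2. The deposited sign of Egr1 followed the dye, at -1.58, 1.30, -0.83 and 1.33 on arrays 1 to 4. Whether these values bear on the apolipoproteins was not tested.

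**Figure D5:**
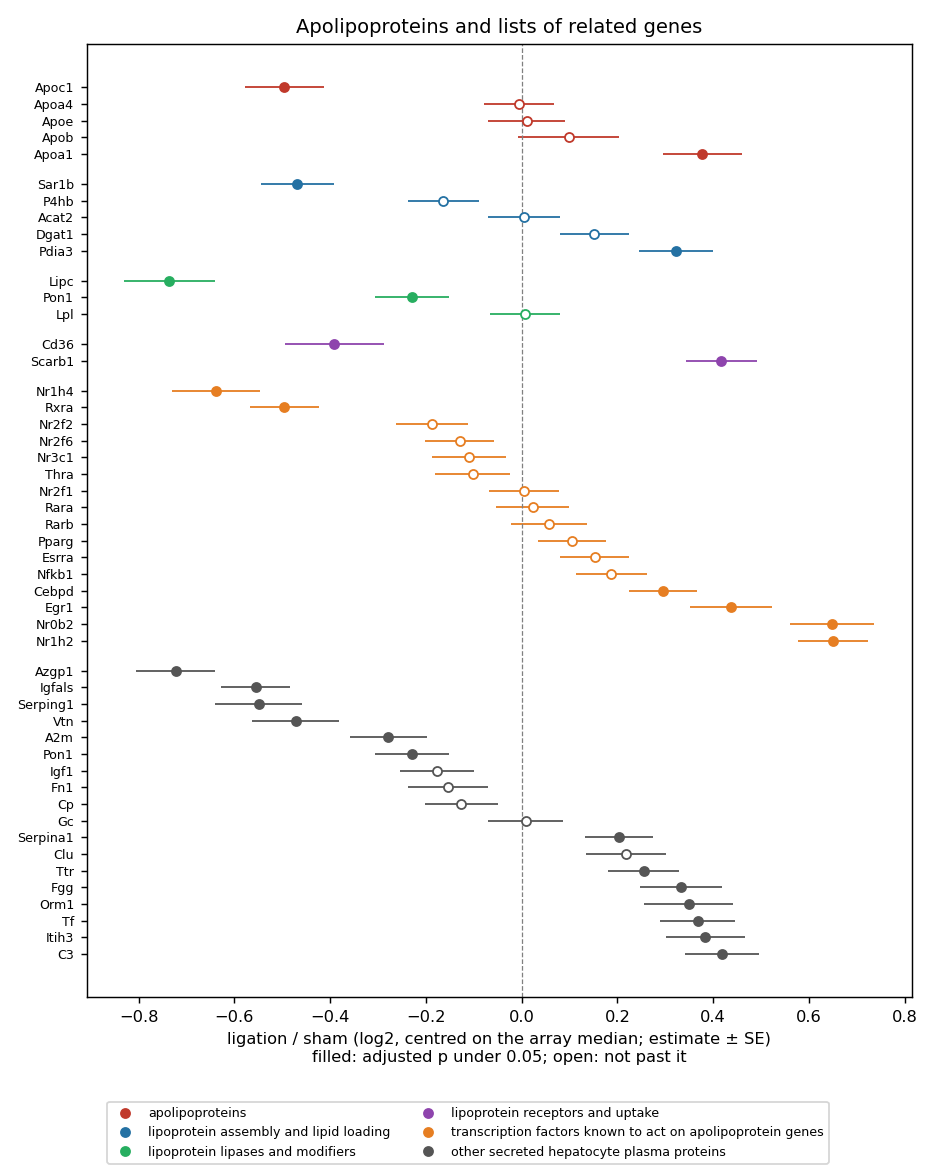
Fitted log2 ratio of ligation over sham, centred on the array median (horizontal axis, estimate ± SE from 4 arrays), for the apolipoproteins and the measured genes of 5 lists (vertical axis); filled points passed limma's adjusted p of 0.05. Apoc1 at -0.50 and Apoa1 at 0.38 lie inside the range of the other plasma proteins, from -0.72 to 0.42.

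Of 18 other secreted plasma proteins of the hepatocyte, 7 were higher, 6 lower and 5 did not pass (median -0.059), beside 11.7% of all genes higher and 15.4% lower. Without centring 10 were lower and 0 higher (median -0.44), beside 82.6% and 1.15% of all genes. The growth factor carrier Igfals was at -0.56 ± 0.07, the zinc-binding glycoprotein Azgp1 at -0.72 ± 0.08, the C1 inhibitor Serping1 at -0.55 ± 0.09 and vitronectin, Vtn, at -0.47 ± 0.09. The higher ones included complement C3 (0.42 ± 0.08) and the inhibitor chain Itih3 (0.38 ± 0.08). Without centring they were at 0.037 and 0.0021 and not called. Apolipoproteins thus lay within the spread of this list in both directions.

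The genes whose 4 centred values were closest to those of each apolipoprotein were found by root mean square difference over the 4 arrays. For Apoc1 they were Echs1 (0.057 in log2), Vtn (0.067), Aldh9a1 (0.075), Serping1 (0.079) and Fgl1 (0.092), each called lower at -0.46 to -0.55. For Apoa1 they were Nisch (0.014), Itih3 (0.086), Txn1 (0.092), Nme2 (0.096) and Sod2 (0.10), each called higher at 0.30 to 0.43. For Apoe they were Fastk (0.060), Arl1 (0.068), Adam9 (0.074), Slc2a8 (0.091) and Pcsk7 (0.099), none of them called. For Apoa4 they were Sub1 (0.066), Nck1 (0.072), Zfp771 (0.072), Adgrl1 (0.094) and Prss2 (0.10), none called. For Apob the closest were Dapk1 (0.22), Grina (0.24), Ppp5c (0.24), Epha5 (0.24) and Cdk9 (0.25), further off than for the other 4 genes and none called. All 4 arrays share the dye pattern, which enters these distances. The neighbours were picked on the same 4 values that the fit uses. Their fitted values and calls therefore follow from that choice and are no separate result.

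Because the arrays give ratios, the presence of hepatocytes cannot be read from them. Of 11 hepatocyte markers 4 were measured: Tf (0.37), Ttr (0.26) and Serpina1 (0.20) were higher and Fah (-0.68) was lower. Beside them, 11.7% of all genes were called higher and 15.4% lower. Tf, Ttr and Serpina1 were at -0.014, -0.13 and -0.18 without centring, and no call of theirs held there. Fah stayed called lower without centring (-1.06), beside 82.6% of all genes called lower. Ttr lost its call without array 1 (0.20), array 2 (0.26) or array 4 (0.25), and Serpina1 without any 1 of the 4 arrays (0.20 to 0.21). In the centred fit none of 3 cholangiocyte markers was called, nor was the 1 blood cell marker, beside 27.1% of all genes. Of 3 stellate cell markers Timp1 was higher (0.35) and Col1a1 lower (-0.23). In addition, 2 of 4 endothelial markers were lower, namely Ece1 (-1.18) and Kdr (-0.33), and the 1 leukocyte marker, Cd53, was lower at -0.27. These calls stand beside the same 11.7% of all genes higher and 15.4% lower. Col1a1 and Cd53 were not called without array 2, 3 or 4 (Col1a1 at -0.24, -0.19 and -0.22, Cd53 at -0.27, -0.20 and -0.26), nor Kdr without array 1 (-0.26) or array 2 (-0.20), and none of these 3 with the zero from probes of agreeing orientations. Without centring all 3 cholangiocyte, all 4 endothelial, 2 of 3 stellate cell, the leukocyte and the blood cell markers were called lower, beside 82.6% of all genes. The deposited gaps between orientations were -1.84 for Serpina1, -1.76 for Kdr, -1.56 for Col1a1, -1.45 for Timp1 and -0.91 for Cd53. Those of Tf (-0.19), Ttr (-0.076), Ece1 (0.22) and Fah (0.46) were smaller. None of 6 small intestine markers was measured. Their part in the apolipoprotein values was not tested.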

How the data were processed

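The log2 ratios, 1 per probe and array, are the authors' deposited values, and for scanning, background correction, normalization, logarithm base and direction nothing is stated: not given in the sources used here. Base 2 and ligation over sham were assumed. Gene symbols came from the platform annotation (1432 probes with 1 symbol, 19 with several, 485 unnamed); the numbers of the 5 genes matched RefSeq. The 288 spots at 18 positions unnamed in each of 16 print blocks were taken as controls and left out. The median of all 1936 values was subtracted per array, and probes of 1 symbol were averaged, giving 958 genes and 216 other probes. A ligation and a dye term were fitted with limma 3.58.1 (R 4.3.3), with eBayes and Benjamini-Hochberg adjustment over all 1174 features, and separately over 1648 probes. The fit was tested on simulated data. Pairs of genes were compared with exact sign-flip permutation tests (scipy 1.17.1). Named genes were all apolipoproteins and, of each list, the called members with the 6 largest changes. The members, lists and tests were chosen with earlier results of these data known. Alternatives were other centrings, quantile normalization, the other reading, no dye term, other probe summaries, a robust prior, natural logarithms, and each array left out.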

Additional observations from a re-analysis of the deposited data

How the results depend on the processing

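The cause of the changes below was not tested unless given. The base, the direction and the zero point of the ratios limit every statement, and signal over background is unknown. With all 4 arrays and centring on the median, 260 genes, 2 apolipoprotein genes and 3 apolipoprotein probes were called. Leaving out each array in turn gave 191 to 240 genes, 2 apolipoprotein genes each time and 3 probes each time, with Apoa1 from 0.27 to 0.48 and Apoc1 from -0.59 to -0.40, both called each time. Each such fit keeps a single array of 1 dye orientation, so its calls rest mostly on the variance shared by all features. Calls kept or lost with an array left out, here and above, are therefore no separate test. Without centring 802 genes (11 higher, 791 lower), 4 apolipoprotein genes and 5 probes were called, each called apolipoprotein being lower; Apoa1 was at -0.0039, Apob at -0.28, Apoe at -0.37 and Apoa4 probe 459 at -0.35, while Cebpd was at -0.087, Pdia3 at -0.059, Serpina1 at -0.18, Tf at -0.014, Timp1 at -0.034 and Ttr at -0.13. Read as Cy5 over Cy3, 747 genes (433 higher, 314 lower), 5 apolipoprotein genes and 7 probes (6 higher, 1 lower) were called, with Apoa4 at 0.23, Apoc1 at 0.80, Apoa4 probes 459 and 662 at -0.30 and 0.76, and Apoc1 probes 1168 and 1261 at 0.82 and 0.79. Under that reading Azgp1 was at 0.76, Cd36 at 0.085, Cd53 at 0.27, Ece1 at 0.84, Egr1 at -0.54, Fah at 0.95, Igfals at 0.54, Lipc at 0.60, Nr1h4 at 0.16, Pon1 at 0.12, Rxra at 0.54, Sar1b at 0.71, Serpina1 at -0.19, Serping1 at 0.81, Timp1 at -0.00049 and Vtn at 0.82. The differences there were -0.0062 for Apoa1 minus Apoc1, -0.57 for Apoa4 minus Apoc1, -0.27 for Apob minus Apoc1, -0.19 for Apob minus Apoe and 0.079 for Apoc1 minus Apoe. Without a dye term limma called 0 genes, 0 apolipoprotein genes and 0 probes (52 genes at an unadjusted p under 0.05), since the dye difference then counts as error. Values near 0 changed sign for Apoa4 with print-block centring (0.0056 for the gene, -0.043 and 0.055 for probes 459 and 662) and with the zero from probes of agreeing orientations (0.067 and, for probe 662, 0.027). With an array left out, Apoe ranged from -0.081 to 0.10, Apob from -0.081 to 0.28 and Apoa4 from -0.052 to 0.041, none called, while Apoa4 probe 459 ranged from -0.078 to 0.15 and probe 662 from -0.11 to 0.018. Over the same omissions Apoa1 minus Apoc1 ranged from 0.84 to 0.90, Apoa4 minus Apoe from -0.23 to 0.20, Apoa4 minus Apob from -0.36 to 0.058 and Apob minus Apoe from -0.077 to 0.26. These differences are plain means of the arrays kept, with the dye orientations unbalanced and no dye term. Apoa1 and Apoc1 kept their direction and call with quantile normalization (0.28 and -0.39) and print-block centring (0.40 and -0.49). With probe medians, control spots kept or a robust prior both stayed called, but their estimates could not change there, only the p-values. Natural logarithms only rescaled the values, to 0.54 for Apoa1 and -0.71 for Apoc1, and could not alter a call. Each array carries both mixtures, so every ratio is already a comparison within an array.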
